A study of Mus musculus with 16 samples.

Results

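Livers of Arid1a KO mice that had received a nuclear receptor agonist were compared with livers of Arid1a KO mice that had received DMSO vehicle. The members were taken by the column names of the count table, which give 2 agonist and 2 vehicle libraries, 4 of the 16 in the series. These names mark the agonist libraries TC and the vehicle libraries DMSO. All 17831 of the 55291 listed genes that passed a filter on low counts were tested. RNA carrying poly(A) was sequenced from whole liver tissue as the series describes it, although the cell type field of the labels reads hepatocytes. The groups used were WT given vehicle, WT given the agonist, Arid1a KO given vehicle and Arid1a KO given the agonist, each with 2 libraries taken 30 days after tamoxifen, and Arid1a KO given vehicle and taken at 9 days, with 2 libraries. WT livers given vehicle and taken at 9 days and livers of the Arid1a/b double KO given vehicle and taken at 9 days, each with 2 libraries, entered only the shared estimate of the spread and the alternatives. The days of all of these groups are counted from tamoxifen. The titles of the WT agonist livers give 9 days while their other labels give 30 days, and they were taken as 30-day livers. The labels name the receptor NR1L3, which is not the symbol of a receptor gene, so both CAR (Nr1i3) and LXR alpha (Nr1h3) were followed. No dose, interval from agonist to sampling, sex of the mice or promoter of the recombinase is given in the sources used here. The replicates are described as biological. No label ties an agonist liver to a particular vehicle liver.

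CAR is a nuclear receptor of hepatocytes that senses drugs and other foreign compounds. On activation it pairs with the retinoid X receptor and induces enzymes that oxidise, conjugate and export such compounds, with Cyp2b10 as its standard target in the mouse, and it is known to drive enlargement of the liver and division of hepatocytes. LXR alpha pairs with the same partner, senses oxysterols and induces sterol exporters and lipid synthesis genes. ARID1A is a DNA-binding subunit of the BAF complex, a remodeller that moves nucleosomes and opens enhancers, and loss of it changes which genes a transcription factor can reach.

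Total counts were 10.3 M and 28.2 M in the vehicle and 13.2 M and 29.8 M in the agonist libraries of Arid1a KO, with replicate 1 the shallower in each group, and 9.38 M to 27.9 M in the 4 WT libraries. A count of 3 corresponds to between 0.101 and 0.292 CPM in the 4 Arid1a KO libraries. Levels are given as CPM, counts scaled to library size with TMM factors, replicate 1 before replicate 2. The Arid1a KO vehicle livers differed from each other more than the livers of any other group, with a correlation of log CPM of 0.9542 against 0.9696 to 0.9773 in the other 6 liver groups. On the first principal component vehicle replicate 1 lay at 49.9, near the WT vehicle livers at 61.5 and 68.3, while vehicle replicate 2 lay at -2.04 and the agonist livers at -53.6 and -27.3. A clock gene also separated the replicate numbers. Dbp, an output gene of the circadian clock chosen here after its values were seen, stood at 6.10 and 324 CPM in vehicle and 5.85 and 205 CPM in agonist livers. Over the 19 clock genes listed, the summed level was higher in replicate 2 than in replicate 1 in all 4 of the 30-day groups (866 and 1979, 552 and 1421, and in WT 1123 and 2730.5 and 1349.6 and 2462 CPM). The 4 Y-linked genes measured were not called, with summed levels of 203 and 187 CPM in vehicle and 206 and 226 CPM in agonist livers, and Xist had too few counts to be tested. Of 8 hepatocyte markers none was called and all had negative fold changes, with a median log2 of -0.68. For 6 of them both agonist livers lay below both vehicle livers, against 19.2% of all genes. At an unadjusted p under 0.05, 2 were lower, against 6.12%. Their sum was 31522 and 22194 CPM in vehicle and 19803 and 18401 CPM in agonist livers. The groups overlapped for Alb, the gene of albumin, at 1875 and 4120 CPM in vehicle and 2794 and 3099 CPM in agonist livers.

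Arid1a transcripts were counted at 94.2 and 75.7 CPM in Arid1a KO vehicle livers and 81.7 and 67.9 CPM in Arid1a KO agonist livers. The WT livers held 104 and 85.5 CPM with vehicle and 93.1 and 74.4 CPM with the agonist. Counts over the whole gene (chr4:133679008-133756769, minus strand, GRCm38) do not resolve a deleted exon, so these values check nothing of the labels. Arid1b, the alternative subunit, was not called (67.3 and 37.3 CPM with vehicle, 46.4 and 38.6 CPM with the agonist). None of the 25 BAF subunit genes tested was called, and their median log2 fold change was -0.06. The receptors were present in every library. Nr1i3 stood at 72 and 50.6 CPM with vehicle and 22.7 and 46.9 CPM with the agonist, and its groups did not overlap (log2 fold change -0.81, SE 0.64, adjusted p = 0.66). Nr1i2, the related receptor PXR, stood at 77.7 and 103 CPM and 99.2 and 132 CPM. Nr1h3 stood at 164 and 209 CPM and 115 and 162 CPM. None of the 10 receptor and partner genes listed was called, 8 of them with a negative fold change, among them Rxra, the shared partner (625 and 725 CPM with vehicle, 406 and 574 CPM with the agonist).

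With the agonist, 98 genes rose and 57 genes fell in Arid1a KO liver at an adjusted p under 0.05 (edgeR quasi-likelihood F test, Benjamini-Hochberg over all genes tested). These are 0.55% and 0.32% of the genes tested. In whole tissue, a change in RNA per cell and a change in the number of cells of a type cannot be told apart. The risers had a median log2 fold change of 2.965, ranging from 0.812 to 14.5, and the genes that fell had a median of -2.303. The 2 agonist livers lay beyond both vehicle livers for each of the 155 called genes, an arrangement that 20.3% of all genes showed in the higher and 19.2% in the lower direction. At an unadjusted p under 0.05 there were 1205 genes higher (6.76%) and 1092 lower (6.12%), and the median over all genes was -0.0199. The plot of fold change against p shows the called genes on both sides, with Slc1a2, Susd4, Pnliprp1 and Pparg at the smallest p among the genes labelled in it.

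**Figure D1:**
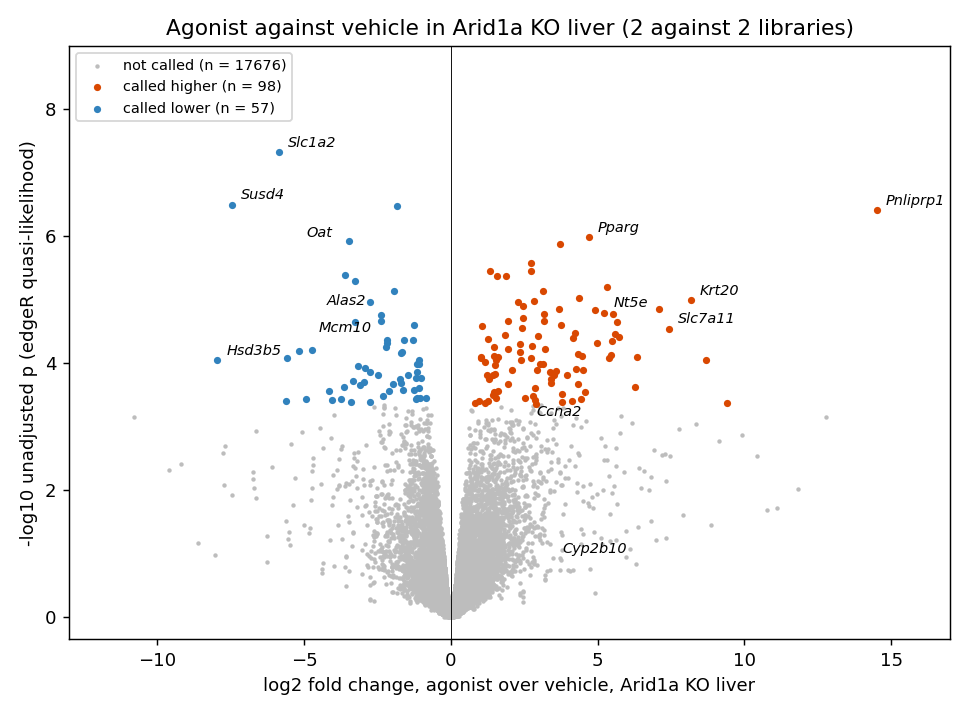
Each point is a gene, with the log2 fold change of agonist over vehicle in Arid1a KO liver on the horizontal axis and -log10 of the unadjusted edgeR p on the vertical axis. The 98 genes called higher are orange and the 57 called lower are blue, and Cyp2b10 lies among the 17676 grey points that were not called.

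The count of calls depended on single livers. Without vehicle replicate 1 it was 16 higher and 13 lower, of which 14 and 12 were among the 98 and 57. Leaving out vehicle replicate 2 gave 169 and 121 calls, leaving out agonist replicate 1 gave 26 and 9, and leaving out agonist replicate 2 gave 53 and 15. A fit of only the 4 libraries compared called 6 and 3. The direction of all 155 genes was the same in each of these fits. Their groups did not overlap, so leaving out a library could hardly turn a direction. Of the 51 called genes named in the text, 10 were called with each of the 4 libraries left out in turn, namely Pnliprp1, Pparg, Slc22a27, Aldh3a2, Slc1a2, Susd4, Oat, Lama3, Cyp2u1 and Fam171a1. A further 7 were called in 3 of the 4 such fits, 5 in 2, 21 in 1 and 8 in none of them.

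Target genes of CAR were high in the agonist livers, with few calls. Cyp2b10, the standard CAR target, stood at 320.0 and 8.84 CPM in the vehicle livers and at 1871 and 1816 CPM in the agonist livers (chr7:25897620-25926624, plus strand). Both agonist livers were far above both vehicle livers, the vehicle livers differed widely from each other, and the gene was not called (log2 fold change 3.49, SE 2.05, adjusted p = 0.532). Without vehicle replicate 1 the log2 fold change was 7.68 (SE 3.04, adjusted p = 0.552), and without replicate 1 of both 30-day vehicle groups it was 7.68 (SE 1.75, adjusted p = 0.178). It was called in the fit without the low-count filter and in none of the other alternatives run. The 9-day Arid1a KO vehicle livers held 2.2 and 2.06 CPM. WT livers showed the same arrangement, 350.0 and 0.494 CPM with vehicle and 2106 and 2018 CPM with the agonist. Replicate 1 was thus the high vehicle liver in both genotypes, and whether these 2 livers had met the agonist or another inducer was not tested. If they had, the fold changes of both genotypes would not be those of agonist against vehicle alone. Cyp2c55, another P450 enzyme of this group, stood at 140.3 and 50.2 CPM with vehicle and 889.9 and 933 CPM with the agonist and was not called either (adjusted p = 0.095), and Cyp3a11, the main drug-oxidising Cyp3a enzyme, had 901 and 1389 CPM and 2780.2 and 2751 CPM (adjusted p = 0.0742). The agonist levels of Cyp2b10 and Cyp2c55 in Arid1a KO were close to those of WT, whereas Cyp3a11 reached 6506 and 5041 CPM in WT agonist livers.

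**Figure D2:**
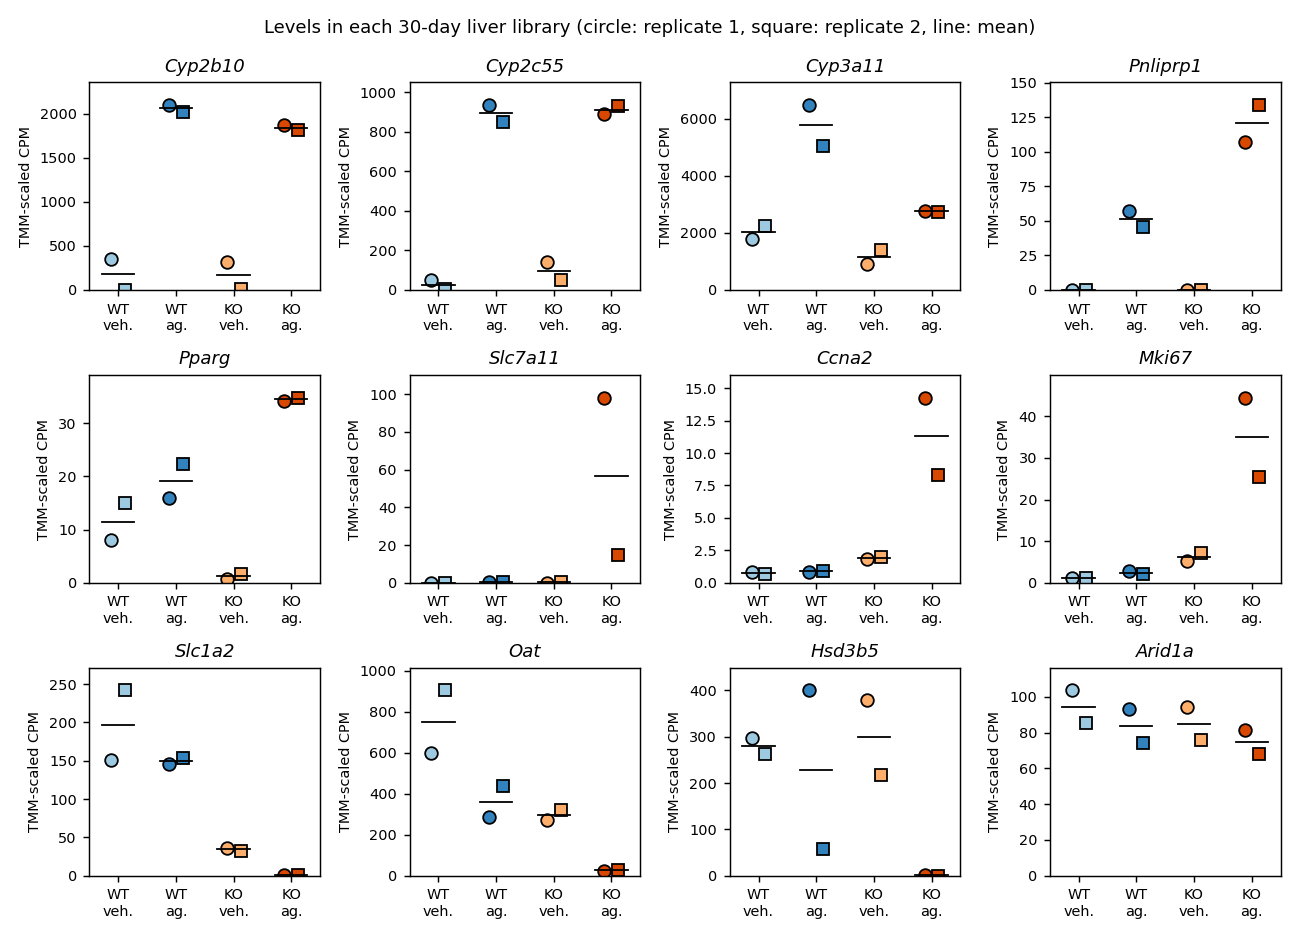
TMM-scaled CPM of 12 genes in the 8 libraries of the 30-day livers, by genotype (WT, KO) and treatment (veh., vehicle; ag., agonist); circles are replicate 1, squares replicate 2 and lines the mean of 2. Cyp2b10 and Cyp2c55 are high in all 4 agonist livers, Pparg, Slc7a11, Ccna2 and Mki67 are highest in the Arid1a KO agonist livers, and Slc1a2, Oat and Hsd3b5 are lowest there.

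All 28 measured phase 1 enzymes of the CAR target list, which oxidise or hydrolyse their substrates, had a positive fold change, with a median log2 of 1.22 against -0.0199 over all genes. Of the 28, 3 rose, against 0.55% of all genes. At an unadjusted p under 0.05, 11 were higher, against 6.76%. The groups did not overlap for 19, against 20.3% of all genes in that direction. With each library left out in turn, 0 to 5 of the 28 were called and 10 to 16 had an unadjusted p under 0.05, with medians from 1.1 to 1.91. These risers were Cyp2c38 and Cyp2c65, P450 enzymes, and Aldh1a7, an aldehyde dehydrogenase. Cyp2c38 rose from 1.69 and 5.74 CPM to 35 and 49.4 CPM (log2 fold change 3.41, SE 0.62, adjusted p = 0.0329). Its agonist level was close to that of the 9-day Arid1a KO vehicle livers, at 35.5 and 45.1 CPM. Aldh1a7 rose from 339 and 327 CPM to 718 and 769.8 CPM (log2 fold change 1.16, SE 0.19, adjusted p = 0.0211). Cyp2c65 had 1 count in the vehicle livers and 3.34 and 1.64 CPM in the agonist livers, a ratio of 79.83 with a 95% counting interval of 14 to 3185 that covers counting error only. Cyp2c39 was just outside the threshold (log2 fold change 3.09, SE 0.62, adjusted p = 0.0515). Aldh1a7 and Cyp2c65 were called in none of the fits with a library left out (adjusted p 0.0537 to 0.152 and 0.0637 to 0.176), and Cyp2c38 only without vehicle replicate 2 (0.0276 to 0.193). Genes of the Cyp2c family are near copies of each other, so reads may have been split between them. In WT the 28 phase 1 enzymes had a median log2 of 1.49, and none was called. Of them, 14 were higher in WT at an unadjusted p under 0.05, against 2.19% of all genes.

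Among 22 conjugating enzymes of the same receptor, which attach glutathione, sulfate or glucuronic acid, 1 rose. At an unadjusted p under 0.05, 7 were higher and 1 lower, against 6.76% and 6.12% of all genes. The median log2 was 0.45 in Arid1a KO and 1.08 in WT. In WT none of the 22 was called, and 14 were higher at an unadjusted p under 0.05, against 2.19% of all genes. Gstm2, a glutathione transferase, rose from 163 and 258 CPM to 659 and 615 CPM (log2 fold change 1.60, SE 0.26, adjusted p = 0.0196), and was called in 1 of the 4 fits with a library left out (0.0122 to 0.15). The sulfotransferase Sult2a1, a female-biased enzyme that acts on steroids and bile acids, had 1 count in the vehicle livers and 56.5 and 396 CPM in the agonist livers, and missed the threshold (adjusted p = 0.0669). Sult1e1, which inactivates oestrogens, stood at 3.28 and 3.68 CPM and 122 and 223 CPM (adjusted p = 0.109). Of 8 transporters, none rose and Slco1a1 fell. At an unadjusted p under 0.05, 4 were higher and 1 lower, against 6.76% and 6.12% of all genes. The groups did not overlap for 4 in the higher direction, against 20.3% of all genes. The median log2 was 0.25 in Arid1a KO and 0.535 in WT, where 1 was higher at an unadjusted p under 0.05. Abcc4, an exporter of conjugates in the basolateral membrane, went from 6.55 and 34.6 CPM to 338 and 252 CPM and lay just past the threshold (adjusted p = 0.0544). The agonist livers were several times higher than either vehicle liver. Of 9 growth genes tied to CAR, Gadd45b, a stress-induced regulator of growth and survival, rose from 1.13 and 2.53 CPM to 18.2 and 21.8 CPM (log2 fold change 3.37, SE 0.59, adjusted p = 0.0255), and its adjusted p with a library left out was 0.0395 to 0.193. The WT livers had a like change in it, 0.948 and 1.89 CPM with vehicle and 11.2 and 21.6 CPM with the agonist. Ccnd1, the G1 cyclin D1, stood at 29.7 and 115 CPM and 152 and 148 CPM and was not called.

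None of the 17 LXR targets was called. Their median log2 fold change was -0.23, and 3 had an unadjusted p under 0.05, all higher, against 6.76% of all genes. Abca1, the exporter of cholesterol to apolipoprotein A1, stood at 343 and 242 CPM with vehicle and 288 and 207 CPM with the agonist, and Srebf1, the gene of the lipogenic factor SREBP-1, at 412 and 367 CPM and 184 and 309.9 CPM. The groups overlapped for Abca1, and for Srebf1 both agonist livers were below both vehicle livers without a call (adjusted p = 0.573). Lpl, lipoprotein lipase, which is also expressed by macrophages and counted among their scar-associated markers, stood at 47.1 and 162 CPM and 577 and 346 CPM (adjusted p = 0.329).

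The largest riser was Pnliprp1, a relative of pancreatic lipase (chr19:58728887-58744169, plus strand). No read was counted in either vehicle liver, and the agonist livers held 107 and 134 CPM, at least 1531-fold above the level of 3 counts over the vehicle group (adjusted p = 0.00172). It rose in WT liver as well, from 0.19 and 0 CPM to 57 and 45.8 CPM (adjusted p = 0.0133). Of 12 exocrine pancreas markers only 3 had enough counts to be tested. Among these 3, the elastase gene Cela3b had no count in the vehicle livers and 5.36 and 1.8 CPM in the agonist livers, at least 35.84-fold above the same floor, and was called at an adjusted p of 0.0495. Another, Cela1, was lower with the agonist (129.8 and 29.5 CPM against 19.2 and 20.8 CPM, adjusted p = 0.116). Cela3b stayed near 0 in WT agonist livers (0 and 0.0395 CPM), and it lost its call with any of the 4 libraries left out (0.0653 to 0.223).

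Other genes with large rises started from low levels in the vehicle livers and have varied functions. Krt20, a keratin of gut and urothelium, had 1 count in the vehicle livers and 11.2 and 7.34 CPM in the agonist livers, a ratio of 313.6 with a 95% counting interval of 55.95 to 12420 (adjusted p = 0.00882), and no count in the WT livers of either treatment. Prom1, the gene of the surface glycoprotein CD133, rose from 0.904 and 1.23 CPM to 43 and 58.9 CPM (log2 fold change 5.52, SE 0.76, adjusted p = 0.0103). Ptges, the prostaglandin E synthase, rose from 1.13 and 0.433 CPM to 26.8 and 43.1 CPM (log2 fold change 5.65, SE 0.80, adjusted p = 0.0112). Both also stood higher with the agonist in WT liver, where Prom1 reached 10.2 and 14 CPM and Ptges 12.7 and 10.6 CPM. Nt5e, the gene of the ectonucleotidase CD73 that makes adenosine, rose from 1.81 and 4.15 CPM to 120.1 and 117 CPM (log2 fold change 5.22, SE 0.71, adjusted p = 0.0103). WT livers held 22.7 and 9.52 CPM of Nt5e with vehicle and 15.4 and 6.31 CPM with the agonist, so the Arid1a KO vehicle livers lay below and the agonist livers above all 4 of them. Meig1, a gene of sperm formation, rose from 0.678 and 0.144 CPM to 9.12 and 11.4 CPM (log2 fold change 4.96, SE 0.76, adjusted p = 0.0157). It reached 12.4 and 15.1 CPM in WT agonist livers. Gipc2, a PDZ-domain scaffold, and Insyn1, a component of inhibitory synapses, rose from 0.226 and 0.253 CPM to 18.7 and 5.63 CPM and from 0.113 and 0.18 CPM to 11.6 and 2.78 CPM (adjusted p = 0.0146 and 0.0196). The 2 agonist livers differed severalfold in both. Leaving out vehicle replicate 1 gave an adjusted p of 0.0508 for Krt20, 0.0867 for Prom1, 0.0581 for Ptges, 0.0792 for Nt5e, 0.0976 for Gipc2 and 0.135 for Insyn1.

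NRF2 targets are the transcriptional defence against oxidants and electrophiles. All 19 measured had a positive fold change, with a median log2 of 0.75 in Arid1a KO and -0.02 in WT. Of the 19, 2 rose and 9 had an unadjusted p under 0.05, against 0.55% and 6.76% of all genes. Slc7a11, the cystine importer that feeds glutathione synthesis, rose from 0 and 0.469 CPM to 98.3 and 14.7 CPM (log2 fold change 7.44, SE 1.08, adjusted p = 0.0125). The agonist livers differed from each other by a factor of several in this gene, and the highest of the 4 WT livers held 0.359 CPM. Me1, the malic enzyme that supplies NADPH, rose from 104 and 82.7 CPM to 232 and 312 CPM (log2 fold change 1.54, SE 0.25, adjusted p = 0.0199), while the WT livers held 190.3 and 272 CPM with vehicle and 191 and 145 CPM with the agonist. Ggt1, the ectoenzyme that cleaves glutathione, is not among the 19 listed targets. It rose from 0.113 and 0.325 CPM to 16.8 and 10.6 CPM (log2 fold change 5.72, SE 0.86, adjusted p = 0.0148). Cbr3, a carbonyl reductase, went from 0.339 and 10.7 CPM to 199 and 92.9 CPM and Gpx2, a glutathione peroxidase, from 0 and 0.108 CPM to 10.4 and 1.7 CPM, and neither was called (adjusted p = 0.0725 and 0.0742). Adjusted p-values with a library left out ran from 0.0131 to 0.0866 for Slc7a11, from 0.034 to 0.0958 for Ggt1 and from 0.0541 to 0.108 for Me1. With each library left out in turn, 7 to 11 of the 19 targets had an unadjusted p under 0.05 and 0 to 5 were called, none of them without vehicle replicate 1.

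Few genes of the lipid lists were called. Pparg, the nuclear receptor that governs fat storage, rose from 0.791 and 1.66 CPM to 34.3 and 34.9 CPM (log2 fold change 4.70, SE 0.48, adjusted p = 0.00332; chr6:115360951-115490399, plus strand). The 2 agonist livers were nearly equal, and both stood above the WT livers, at 7.97 and 15.1 CPM with vehicle and 16 and 22.4 CPM with the agonist. The 9-day Arid1a KO vehicle livers were low as well (1.76 and 3.25 CPM), and the adjusted p was 0.007 to 0.0307 with each library left out in turn. Apoa4, an apolipoprotein of triglyceride-rich particles, rose from 554 and 722 CPM to 1642 and 1893 CPM (log2 fold change 1.47, SE 0.24, adjusted p = 0.0196), and the 4 WT livers lay between 158 and 185 CPM. Aldh3a2, the fatty aldehyde dehydrogenase, rose from 74.5 and 35.1 CPM to 393 and 393 CPM (log2 fold change 2.85, SE 0.37, adjusted p = 0.00882). This brought it into the range of the WT livers, 327 and 574 CPM with vehicle and 342 and 489.9 CPM with the agonist, and close to the 9-day Arid1a KO vehicle livers at 317 and 294 CPM. Of 24 genes of PPAR alpha and fatty acid oxidation 1 rose, Acot2, a mitochondrial acyl-CoA thioesterase (1.69 and 2.24 CPM to 10.6 and 11.7 CPM, adjusted p = 0.0112), and the list median was 0.04. At an unadjusted p under 0.05, 3 were higher and 1 lower, against 6.76% and 6.12% of all genes. Without vehicle replicate 1 these were 11 and 0, with a median of 0.357, and without vehicle replicate 2 they were 4 and 4, with a median of -0.129. Cd36, the fatty acid transporter, stood at 20.2 and 81 CPM and 264 and 204 CPM and was not called. Of 16 fatty acid synthesis genes Me1 alone was called, and the median of -0.13 became 0.63 without vehicle replicate 1 and -0.53 without vehicle replicate 2. Dgat2, which makes triglyceride, was lower at 786 and 734 CPM and 223 and 475 CPM without a call, and none of 24 cholesterol synthesis genes was called (median -0.44). Slc22a27, an organic anion transporter of a family with near copies, rose from 0.113 and 0.938 CPM to 18.2 and 33 CPM (adjusted p = 0.00739), and Ddah1, which degrades an inhibitor of nitric oxide synthesis, rose from 1.92 and 14 CPM to 115 and 149 CPM (adjusted p = 0.0266) while the WT vehicle livers held 182 and 179.9 CPM. With vehicle replicate 1 left out the adjusted p was 0.173 for Apoa4, 0.0945 for Acot2 and 0.0709 for Ddah1.

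Most mitosis genes were higher in both agonist livers than in either vehicle liver, and fewer genes of the DNA replication list were. The 60 mitosis genes code for mitotic kinases, kinetochore, spindle and cytokinesis proteins. Summed over the list they stood at 164 and 262 CPM in the vehicle and 665 and 496 CPM in the agonist livers, against 109 and 119.8 CPM in WT vehicle and 118 and 102 CPM in WT agonist livers. Of the 60, 51 had an unadjusted p under 0.05, all higher, against 6.76% of all genes, and for 56 the groups did not overlap, against 20.3%. The median log2 fold change was 1.92. Only Ccna2, the gene of cyclin A2, passed the adjusted threshold (1.81 and 2.02 CPM to 14.3 and 8.29 CPM, log2 fold change 2.54, SE 0.50, adjusted p = 0.046), and it was called in none of the fits with a library left out (0.0647 to 0.318). Ccna2 overlaps Exosc9, and whether the counting used strand is not stated in the sources used here. Next in order of p came Ect2, which positions the cleavage furrow (2.15 and 3.54 CPM, 24.2 and 16.5 CPM, adjusted p = 0.0568), Hmmr, a spindle protein (0.904 and 1.26 CPM, 14.4 and 9.66 CPM, adjusted p = 0.0606), and Ube2c, the ubiquitin-conjugating enzyme of the anaphase-promoting complex (0.452 and 1.62 CPM, 10 and 6.81 CPM, adjusted p = 0.0746). Mki67, the gene of the proliferation antigen Ki-67, stood at 5.31 and 7.25 CPM and 44.5 and 25.4 CPM (adjusted p = 0.101). DESeq2 called 30 of the 60, all higher. With each library left out in turn the median was 1.53 to 2.52, and 32 (without agonist replicate 1) to 49 (without vehicle replicate 2) had an unadjusted p under 0.05. The 9-day Arid1a KO vehicle livers lay between the 30-day groups: against them the median was 0.698, 3 of the 60 had an unadjusted p under 0.05, and Mki67 was at 17.1 and 22.8 CPM.

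Of 42 DNA replication genes none rose, and none had an unadjusted p under 0.05 in the higher direction. This depended on vehicle replicate 2, without which 1 was called higher and 18 had an unadjusted p under 0.05. The median log2 fold change was 0.20, against 0.64 without vehicle replicate 2, -0.14 without vehicle replicate 1, 0.42 without agonist replicate 1 and -0.26 without agonist replicate 2. In each of these fits the mitosis median was higher, but whether the lists differ was not tested. For the replication list, the summed level was 545 and 857 CPM in the vehicle and 428 and 753 CPM in the agonist livers, groups that overlapped. Mcm10, a replication initiation factor, fell from 187 and 212 CPM to 26.7 and 62.2 CPM (log2 fold change -2.16, SE 0.33, adjusted p = 0.0151), and it contributed a large part of that sum. Its adjusted p with a library left out was 0.0131 to 0.0625, and the 9-day Arid1a KO vehicle livers held 99.5 and 82.1 CPM. Rrm2, a subunit of ribonucleotide reductase, stood at 6.1 and 26 CPM and 27 and 51.4 CPM, and Cdc6, which loads the replicative helicase, at 0.339 and 1.84 CPM and 1.39 and 3.73 CPM. In both genes vehicle replicate 2 exceeded agonist replicate 1 or nearly reached it. Among 26 G1 cyclins and CDK inhibitors, Cdkn2c, the gene of the inhibitor p18, rose from 2.71 and 3.18 CPM to 13 and 9.89 CPM (log2 fold change 1.94, SE 0.36, adjusted p = 0.0329), and its adjusted p with a library left out was 0.0728 to 0.256. None of 20 p53 targets was called, and the median was 0.64. In the higher direction 6 had an unadjusted p under 0.05, against 6.76% of all genes. Without vehicle replicate 2, 4 were called and 13 had an unadjusted p under 0.05 (median 1.38), whereas without vehicle replicate 1 or agonist replicate 1 none was called and 2 did (medians 0.51 and 0.44). Cdkn1a, the gene of the CDK inhibitor p21, stood at 43.6 and 72.1 CPM and 138 and 68.5 CPM, with wide overlap.

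The promoters of mitosis and replication genes are shown because these 2 cell cycle lists differed in their median and their promoters are known to carry different elements. Mitotic genes typically carry a cell cycle homology region (CHR) together with CCAAT boxes, and S phase genes typically carry E2F sites. The windows are RefSeq promoters of GRCm38.p6, 250 bases before to 50 bases after the transcript start, on the strand of the gene. Motifs were searched on both strands: TTTGAA for the CHR, CCAAT for the CCAAT box, and TTTCCCGC or TTTGGCGC for E2F. The genes printed had the smallest p of their list among the genes considered that had 1 promoter in the table, and capitals mark every match. Genes of 1 chromosome were not considered, and neither were called genes of the replication list. Mcm10, the replication gene of smallest p (4.2e-05, edgeR quasi-likelihood F test), was called and is therefore not printed. Of the mitosis list, Hmmr (chr11:40733388-40733687, minus strand) and Ube2c (chr2:164769679-164769978, plus strand) are printed, and of the replication list Rrm2 (chr12:24708004-24708303, plus strand) and Cdc6 (chr11:98907901-98908200, plus strand).
Hmmr: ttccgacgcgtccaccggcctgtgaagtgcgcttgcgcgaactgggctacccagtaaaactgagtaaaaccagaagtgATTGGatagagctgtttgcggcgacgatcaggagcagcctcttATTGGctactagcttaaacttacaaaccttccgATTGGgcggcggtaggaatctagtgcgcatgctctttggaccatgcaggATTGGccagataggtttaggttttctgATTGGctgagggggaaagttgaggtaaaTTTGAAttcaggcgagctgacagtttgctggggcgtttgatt
Ube2c: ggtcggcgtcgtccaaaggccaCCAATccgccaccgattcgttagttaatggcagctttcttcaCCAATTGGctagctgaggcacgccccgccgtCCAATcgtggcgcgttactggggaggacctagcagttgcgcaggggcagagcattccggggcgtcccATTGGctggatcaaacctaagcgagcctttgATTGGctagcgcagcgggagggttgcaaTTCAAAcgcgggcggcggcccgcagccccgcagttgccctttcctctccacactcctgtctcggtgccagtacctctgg
Rrm2: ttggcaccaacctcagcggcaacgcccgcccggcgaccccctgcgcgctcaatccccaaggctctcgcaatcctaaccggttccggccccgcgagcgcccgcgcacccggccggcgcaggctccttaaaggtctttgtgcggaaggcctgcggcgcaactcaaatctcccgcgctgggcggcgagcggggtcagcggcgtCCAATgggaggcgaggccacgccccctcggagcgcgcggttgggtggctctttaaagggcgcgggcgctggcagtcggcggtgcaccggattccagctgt
Cdc6: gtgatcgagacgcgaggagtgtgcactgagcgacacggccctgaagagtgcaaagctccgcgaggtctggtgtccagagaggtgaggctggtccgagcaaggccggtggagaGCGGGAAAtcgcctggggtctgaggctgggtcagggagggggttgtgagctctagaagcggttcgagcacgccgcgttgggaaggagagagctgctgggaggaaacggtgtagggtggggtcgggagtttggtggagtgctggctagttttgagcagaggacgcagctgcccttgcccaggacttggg
The Hmmr window holds 5 CCAAT boxes and a CHR that starts 9 bases after the start site, and the Ube2c window holds 6 CCAAT matches and a CHR that starts 29 bases before it. Of the 6 matches, 2 overlap on opposite strands in the stretch CCAATTGG. The Rrm2 window holds a single CCAAT box and the Cdc6 window a single E2F word. Nuf2, a kinetochore gene that ranked with Hmmr and Ube2c by the same rule, has no match in its window. A match is a run of letters and does not show binding.

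Promoters were matched for 51 of the 60 mitosis genes and 34 of the 42 replication genes. The CHR letters were found in 40 of 54 mitosis promoters (74.1%), 4 of 39 replication promoters (10.3%) and 17.9% of all 32851 promoters. CCAAT was found in 66.7%, 59% and 37.4% of them, and CHR and CCAAT together in 57.4%, 7.69% and 6.95%. The E2F words were found in 5.56% of the mitosis and 30.8% of the replication promoters, and in 1.56% of all promoters. For the 98 risers, 18 of 109 promoters (16.5%) held the CHR letters, and for the 57 genes that fell 7 of 55 (12.7%), both near the share of all promoters.

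**Figure D3:**
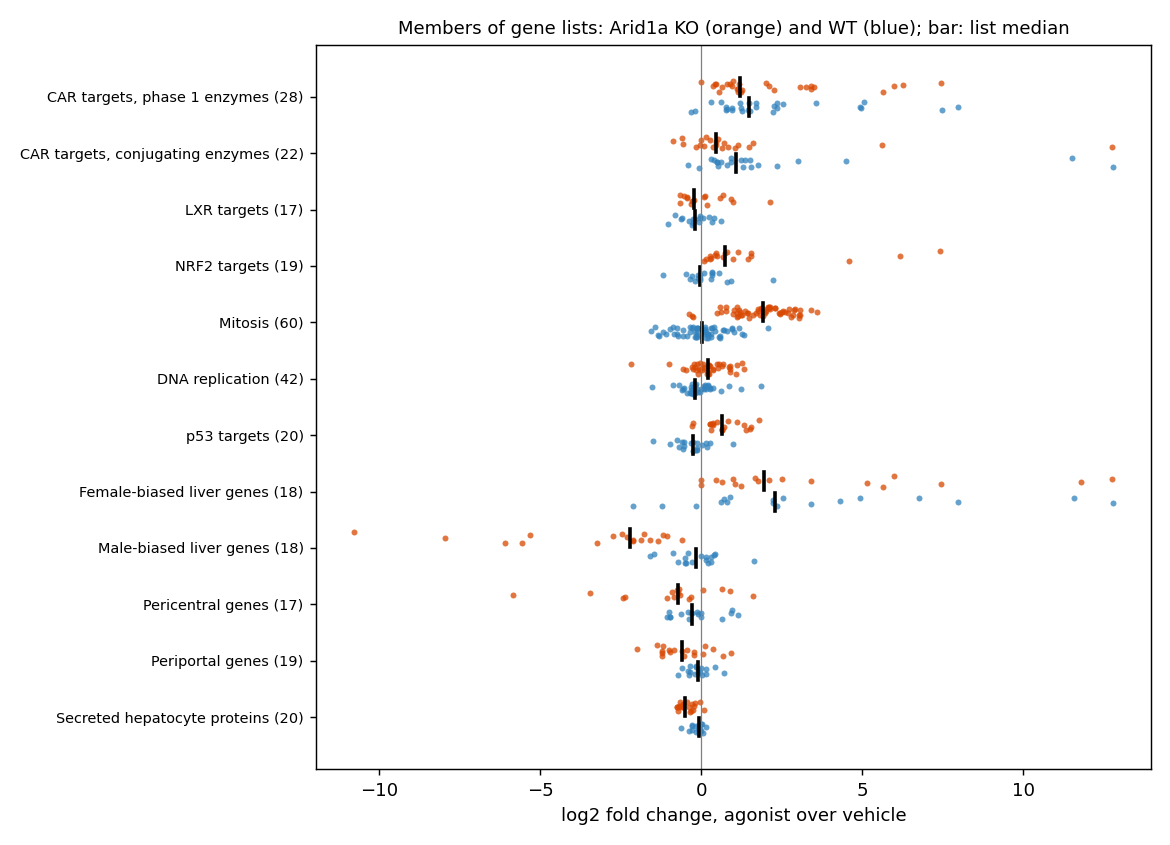
Each point is a member of a gene list, with its log2 fold change of agonist over vehicle on the horizontal axis, orange for Arid1a KO and blue for WT; the black bar is the list median and the number of members tested is in brackets. The mitosis, NRF2 and p53 lists lie to the right of 0 in Arid1a KO with WT medians near or below 0, the male-biased list lies to the left in Arid1a KO, and the CAR phase 1 and female-biased lists lie to the right in both genotypes.

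Genes that fell included several of the most sex-dependent genes of mouse liver, whose male level is set by the pulsatile growth hormone of males. Of 18 male-biased genes 5 fell, 12 had an unadjusted p under 0.05 in the lower direction against 6.12% of all genes, and all 18 had a negative fold change, with a median log2 of -2.21 in Arid1a KO and -0.14 in WT. With each library left out in turn 1 to 7 of the 18 were called, and 9 to 12 had an unadjusted p under 0.05. Hsd3b5, a male-specific steroid reductase, fell from 379 and 218 CPM to 2.37 and 0.36 CPM (log2 fold change -7.95, SE 1.32, adjusted p = 0.0199). The WT livers held 297 and 263 CPM with vehicle and 399.7 and 57.7 CPM with the agonist. The 9-day Arid1a KO vehicle livers were low without the agonist (5.06 and 10.3 CPM). Slco1a1, an importer of organic anions and bile acids, fell from 846 and 173 CPM to 16.9 and 4.91 CPM (log2 fold change -5.56, SE 0.91, adjusted p = 0.0196), and Cyp7b1, the oxysterol hydroxylase of the acidic bile acid pathway, fell from 592 and 185 CPM to 52.6 and 62.9 CPM (log2 fold change -2.75, SE 0.48, adjusted p = 0.0257). In both genes vehicle replicate 1 was several times above vehicle replicate 2, and both agonist livers were below either. Cyp2u1, a fatty acid hydroxylase, fell from 24.6 and 16.3 CPM to 2.51 and 1.83 CPM (log2 fold change -3.25, SE 0.39, adjusted p = 0.00655), and C8b, the gene of a chain of complement component C8, fell from 1085 and 798 CPM to 315 and 316 CPM (log2 fold change -1.58, SE 0.24, adjusted p = 0.0151). The adjusted p with a library left out was 0.00555 to 0.0495 for Cyp2u1, 0.0199 to 0.121 for Hsd3b5, 0.0057 to 0.11 for Slco1a1, 0.00402 to 0.279 for Cyp7b1 and 0.0115 to 0.119 for C8b, and the last 4 were called only without vehicle replicate 2. Set against the 9-day vehicle livers none of the 18 was called, and the median was -0.563.

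Female-biased genes had high fold changes in both genotypes, from low vehicle levels. Of 18 tested 1 rose in Arid1a KO, Hao2, a peroxisomal hydroxy acid oxidase (3.16 and 13.3 CPM to 64.4 and 119 CPM, log2 fold change 3.43, SE 0.62, adjusted p = 0.0293). Of the 18, 5 had an unadjusted p under 0.05, all higher, against 6.76% of all genes. The list median was 1.95 in Arid1a KO and 2.30 in WT. With each Arid1a KO library left out in turn, the Arid1a KO median ran from 1.22 (without agonist replicate 2) to 4.2 (without vehicle replicate 2). Cyp2b13, a female-specific P450, stood at 0.565 and 0.144 CPM and 90.3 and 6.68 CPM, and Sult3a1, an amine sulfotransferase, had no count with vehicle and 0.975 and 35.8 CPM with the agonist, at least 300.9-fold above the floor of 3 counts. The agonist livers differed too widely for a call in either (adjusted p = 0.124 and 0.197). Cyp2b13 is also in the CAR phase 1 list and Sult2a1 in the conjugating list, so these lists are not independent. Against the 9-day vehicle livers the female-biased median was -0.793, with 5 members lower and 3 higher at an unadjusted p under 0.05.

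Other genes with large falls had varied functions. Susd4, a complement regulator, fell from 72 and 30.6 CPM to 0.279 and 0.295 CPM (log2 fold change -7.44, SE 0.68, adjusted p = 0.00172), also against 9-day vehicle livers at 12.6 and 19.1 CPM. The WT agonist livers held 9.44 and 15.6 CPM of it, below WT vehicle at 42.4 and 56.9 CPM, without a call. Mup21, a major urinary protein, fell from 1334 and 564 CPM to 22.8 and 15.9 CPM (adjusted p = 0.0478), and Sult2a8, a sulfotransferase of bile acids, from 1097 and 158 CPM to 11.2 and 29.9 CPM (adjusted p = 0.0467). Neither was called without vehicle replicate 1 (0.159 and 0.209), the liver with the higher level of both. Adgrf1, an adhesion receptor, fell from 46.2 and 28.5 CPM to 1.6 and 0.59 CPM, and Slc22a28, an organic anion transporter, from 50.1 and 14.2 CPM to 1.88 and 0.655 CPM (adjusted p = 0.0182 and 0.0182). Lama3, a laminin chain, fell from 27.5 and 19.3 CPM to 2.37 and 1.54 CPM (log2 fold change -3.60, SE 0.42, adjusted p = 0.00571) in livers whose WT counterparts stayed between 12.7 and 18.5 CPM. Enho, the gene of the secreted peptide adropin, fell from 22.8 and 5.16 CPM to 0.557 and 0.917 CPM, and C4a, a complement C4 copy known as the sex-limited protein, from 43.9 and 66.7 CPM to 6.82 and 2.29 CPM (adjusted p = 0.0394 and 0.0357). Ces3a, a carboxylesterase, fell from 3386 and 1148 CPM to 297 and 234 CPM, Ttc39c, a tetratricopeptide repeat gene, from 970.3 and 590.1 CPM to 136 and 202 CPM, and Cyp4f14, which hydroxylates fatty acids and leukotrienes, from 605 and 323 CPM to 49.5 and 53.1 CPM (adjusted p = 0.0337, 0.0174 and 0.0225). Without vehicle replicate 1 the adjusted p was 0.0792 for Adgrf1, 0.0625 for Slc22a28, 0.171 for Enho, 0.0866 for C4a, 0.167 for Ces3a, 0.0945 for Ttc39c and 0.106 for Cyp4f14. Each of these genes also lost its call with agonist replicate 1 or agonist replicate 2 left out. Mup21, C4a and the Slc22a genes have near copies, and Enho overlaps another gene, so their counts are less certain.

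Of 17 pericentral genes, which mark the zone around the central vein, 2 fell (median -0.73). In the lower direction 8 had an unadjusted p under 0.05, against 6.12% of all genes. Slc1a2, the glutamate transporter GLT-1 (chr2:102658659-102790784, plus strand), fell from 36.7 and 32.3 CPM to 0.696 and 0.524 CPM (log2 fold change -5.85, SE 0.44, adjusted p = 0.000839). Replicates agreed closely in both groups, and the adjusted p was 0.00111 to 0.0162 with a library left out. Oat, ornithine aminotransferase (chr7:132557478-132576398, minus strand), fell from 270.5 and 323 CPM to 25.5 and 28.7 CPM (log2 fold change -3.45, SE 0.36, adjusted p = 0.00332). WT agonist livers held 286 and 436 CPM of Oat, below WT vehicle at 598 and 903 CPM, without a call, and the 9-day Arid1a KO vehicle livers held 476 and 372 CPM. Cyp2e1, the ethanol-oxidising P450, was lower without a call (4149 and 1453 CPM, 451 and 601 CPM, adjusted p = 0.0868), and Glul, glutamine synthetase of the innermost pericentral layer, stood at 1096 and 454 CPM and 373 and 447 CPM. Without vehicle replicate 1 the pericentral median was -0.238 with 3 at an unadjusted p under 0.05 in the lower direction, without agonist replicate 1 it was -0.681 with 3, and Slc1a2 and Oat were called in both fits. Of 19 periportal genes none was called, and 5 had an unadjusted p under 0.05, all lower, against 6.12% of all genes (median -0.61). Gls2, the liver glutaminase, stood at 565 and 728 CPM and 174 and 388 CPM and Cps1, the entry enzyme of the urea cycle, at 5884 and 3785 CPM and 1967 and 2909 CPM. In both, each agonist liver was below each vehicle liver. Among 24 genes of bile acid synthesis and transport, the 2 that fell were Slco1a1 and Cyp7b1, and Cyp8b1, which sets the share of cholic acid, was just outside the threshold (515 and 199 CPM, 45.2 and 102 CPM, adjusted p = 0.0548).

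Other lists held few calls. Orm2, the acute phase protein alpha-1-acid glycoprotein, rose from 30.7 and 42 CPM to 320.0 and 564 CPM (log2 fold change 3.60, SE 0.62, adjusted p = 0.0252), the only call among 23 acute phase genes. It was called in none of the fits with a library left out (0.0533 to 0.193), and the 9-day Arid1a KO vehicle livers held 235 and 139 CPM. Orm genes are near copies of each other. Lcn2, the iron-binding protein lipocalin 2, stood at 10.5 and 33.1 CPM and 191 and 267 CPM without a call. Of 12 Wnt feedback targets tested Tnfrsf19, a receptor of the TNF family, rose from 2.82 and 3.32 CPM to 13.9 and 19.8 CPM (log2 fold change 2.44, SE 0.35, adjusted p = 0.0125; 0.106 without vehicle replicate 1). WT agonist livers held 25.6 and 28.2 CPM of it. Notum, a secreted Wnt inhibitor, was lower and just outside the threshold (46.1 and 27.7 CPM, 8.7 and 10.7 CPM, adjusted p = 0.0546). Of 15 oncofetal genes tested, 6 had an unadjusted p under 0.05, all higher, against 6.76% of all genes. None of the 15 was called, and the median was 1.35. Among them the imprinted RNA H19 stood at 3.05 and 10.1 CPM and 117 and 54.5 CPM and Gpc3, glypican 3, at 3.73 and 4.37 CPM and 15.2 and 12.6 CPM, while Afp, the gene of alpha-fetoprotein, stood at 2.03 and 6.03 CPM and 7.45 and 7.08 CPM. No gene was called in the lists of interferon response (28 genes, median 0.18), hepatocyte transcription factors (18, -0.41), secreted hepatocyte proteins (20, -0.49), gluconeogenesis and glycolysis (19, -0.25), unfolded protein response (23, 0.00), YAP and TAZ targets (14, 0.10), circadian clock (19, -0.61) and immediate early genes (12, -0.05). For 14 of the 20 secreted proteins both agonist livers lay below both vehicle livers, against 19.2% of all genes. At an unadjusted p under 0.05, 4 secreted proteins, 2 transcription factors and 1 gluconeogenesis and glycolysis gene were lower, against 6.12% of all genes. Higher by that measure were 5 unfolded protein, 2 immediate early and 1 YAP and TAZ gene, against 6.76%. The interferon and clock lists held none.

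Macrophage markers summed to 688 and 869 CPM in the vehicle and 1627 and 982 CPM in the agonist livers, with none of 14 called and a median log2 of 0.87. Of the 14, 3 were higher at an unadjusted p under 0.05, against 6.76% of all genes. Markers of scar-associated macrophages summed to 545 and 879 CPM and 1679.7 and 1175 CPM. Of these 10, Cd63, a tetraspanin of lysosomes, rose from 7.34 and 18.2 CPM to 100.4 and 74.2 CPM (log2 fold change 2.74, SE 0.45, adjusted p = 0.0196; 0.102 without vehicle replicate 1). Stellate cell and fibroblast markers summed to 347 and 681 CPM and 1036 and 562 CPM, with none of 16 called and all 16 fold changes positive (median 0.77). In each of these lists agonist replicate 1 was the highest library. Agonist replicate 1 was also highest in the sum of neutrophil markers (4.29 and 9.78 CPM with vehicle, 56.1 and 11.6 CPM with the agonist) and had the highest Slc7a11, Ccna2 and Mki67. The part of these cells in the higher mitosis, NRF2 and oncofetal genes was not tested. Endothelial markers (0.01), lymphocyte markers (-0.07), cholangiocyte markers (0.14) and the 3 adipocyte markers tested (0.01) held no call, and the adipocyte markers Adipoq, Lep, Plin1 and Retn had too few counts to be tested. Their sums too were highest in agonist replicate 1 among the 4 Arid1a KO libraries (690, 81.7, 408.5 and 29 CPM). The high level of that liver was thus not particular to 1 cell type. Sums of hepatocyte, erythroid and exocrine pancreas markers were highest in vehicle replicate 1. Among 7 erythroid markers Alas2, the haem synthesis enzyme of red cell precursors, fell from 395 and 293 CPM to 66.2 and 66.4 CPM (log2 fold change -2.38, SE 0.33, adjusted p = 0.0105; 0.0635 without vehicle replicate 1). The globin gene Hba-a1 stood at 20.7 and 9.45 CPM and 12.3 and 4.59 CPM, with overlap. The 30-day vehicle livers were the high group for Alas2, since the 9-day Arid1a KO vehicle livers held 41.6 and 53.7 CPM and the WT livers of both treatments between 165 and 190 CPM. Alas2 overlaps Apex2 on the opposite strand.

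In WT liver the agonist was followed by 5 calls, all higher (0.028% of genes), and by 0 lower at an adjusted p under 0.05 in edgeR, with 390 genes higher (2.19%) and 263 lower (1.47%) at an unadjusted p under 0.05. DESeq2 called 96 higher and 16 lower. The WT groups did not overlap for 14.2% of genes in the higher and 14.2% in the lower direction. The 5 were Pnliprp1, Nebl, Grm8, Fam171a1 and Fyb2, and 3 of them, Pnliprp1, Nebl and Fam171a1, also rose in Arid1a KO. Fam171a1, a membrane protein gene, rose in WT from 5.97 and 5.21 CPM to 40.8 and 32.6 CPM. Its rise in Arid1a KO was nearly the same, from 5.76 and 4.58 CPM to 34.1 and 34.8 CPM. Nebl, an actin-binding protein, reached 52.7 and 62.5 CPM in the WT agonist livers, above the Arid1a KO agonist livers at 13.7 and 14.2 CPM. Grm8, a glutamate receptor, rose in WT from 2.56 and 1.03 CPM to 23.3 and 23.8 CPM and in Arid1a KO stood at 10.2 and 10.6 CPM and 8.22 and 8.71 CPM. Of the 98 risers of Arid1a KO, 74 had a positive fold change in WT, and the WT groups did not overlap in the same direction for 52. Of the 57 genes that fell, 39 had a negative fold change in WT, and the groups did not overlap in the same direction for 24. Their median log2 fold changes in WT were 0.4953 and -0.1788. Since these genes were chosen by their change in Arid1a KO, the smaller medians in WT are a description.

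**Figure D4:**
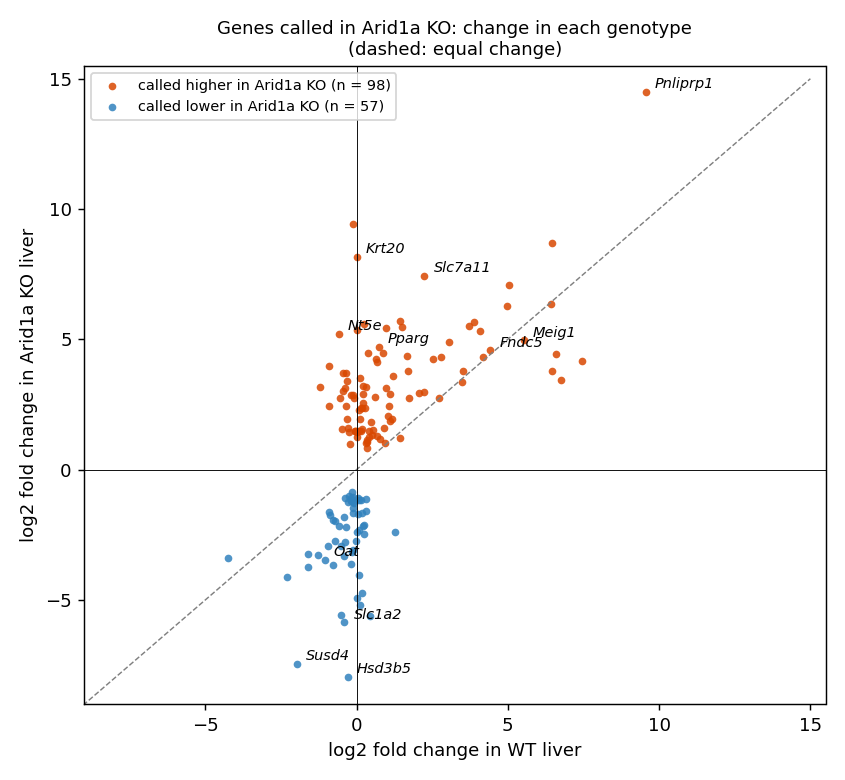
Each point is a gene called in Arid1a KO liver, orange for the 98 that rose and blue for the 57 that fell, with its log2 fold change of agonist over vehicle in WT on the horizontal and in Arid1a KO on the vertical axis; the dashed line marks equal change. Many genes lie near 0 on the WT axis, Pnliprp1 is far from 0 on both axes, and Meig1 lies close to the dashed line.

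The difference between the genotypes in their change with the agonist was tested as an interaction. It was called for 1 gene (0.00561% of genes), Slc1a2, at a log2 difference of -5.45 (SE 0.54, adjusted p = 0.0129), where WT livers stood at 151 and 242 CPM with vehicle and 145 and 153 CPM with the agonist. Slc1a2 was also lower in Arid1a KO than in WT vehicle livers, so its fall with the agonist started from a lower level. At an unadjusted p under 0.05 the change in Arid1a KO was above that in WT for 496 genes (2.78%) and below it for 499 (2.8%). Of the other genes named, those nearest to the threshold were Grm8, at -4.06 (adjusted p = 0.0747), Pparg, at 3.97 (SE 0.61, adjusted p = 0.09), Susd4 at -5.47 (adjusted p = 0.0798), Acot2 at 3.37 (adjusted p = 0.0776), Lama3 at -3.42 (adjusted p = 0.103) and Nt5e at 5.81 (adjusted p = 0.103). None of these was called. For 20 of the 60 mitosis genes the unadjusted p of the interaction was under 0.05, all with the larger change in Arid1a KO, and for 10 of the 18 male-biased genes, all with the lower change in Arid1a KO. The interaction estimate of Cyp2b10 was -0.07 with an SE of 2.63, so a difference of several-fold would not have been detectable.

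Of the 17831 genes tested against the 9-day Arid1a KO vehicle livers, 79 were higher and 37 lower in the agonist livers. Of the 98 and 57 genes, 56 and 17 were among them. Sign was the same for 97 of the 98 risers and 55 of the 57 that fell. The agonist livers lay beyond the 9-day vehicle livers as well as the 30-day ones for 93 and 54 genes. These genes were chosen by their change from the 30-day livers, and the share of all genes with this arrangement was not computed. Slc1a2 (157 and 78.3 CPM at 9 days), Oat, Susd4, Pparg and Pnliprp1 were called in this comparison too, whereas Hsd3b5, Aldh3a2, Nt5e, Slc22a27 and Alas2 were not.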

How the data were processed

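The submitters' processing notes name fastp for trimming, STAR 2.7.3 for alignment to GRCm38.p6 (mm10) and featureCounts for counting. Poly(A) RNA was made into libraries with a TruSeq kit, per the labels. No annotation release or strand setting is given in the sources used here. The authors deposited whole-number counts per gene for each library. They also deposited a table of normalized signal values, which proved to be the same counts times a factor for each library and served only in an alternative.

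One model covered the 14 liver libraries (7 groups of 2, leaving 7 residual degrees of freedom), and the tumours were left out. It used edgeR 4.0.16 in R 4.3.3, with genes kept by filterByExpr, libraries scaled by TMM and contrasts tested by quasi-likelihood F. Each comparison was adjusted over its 17831 genes by Benjamini-Hochberg, with calls at an adjusted p under 0.05. SE was obtained from the log2 fold change and F. Where a group had no count, a floor of 3 counts was used. Intervals and floors cover counting error only.

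The members, the gene lists (32 of pathways and receptors, 11 of cell types) and the tests were chosen with earlier results of these data known. Named genes are up to 12 called genes per direction by fold change and up to 8 by difference of CPM (mean of at least 2 CPM, no overlap of groups), up to 4 members of smallest p from lists described, those called in the interaction, and 15 genes followed throughout. Outside this rule, Dbp, Alb, Nuf2 and the genes called in WT liver were named after their values were seen. The alternatives varied the scaling (RLE), the filter (none), the test (DESeq2 1.42.0, limma-trend with limma 3.58.1), the replicate number (as a block), the libraries fitted and the vehicle livers (9 days), and left out 1 library at a time. A group reduced to 1 library was taken to vary like the rest. Leaving out replicate 1 of both 30-day vehicle groups together was added after the data were seen. GENCODE M21 gave a single position for 97.9% of genes. Figures used matplotlib 3.10.9 and Python 3.11.15.

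The fit was also tested on simulated data at the depths of the Arid1a KO comparison, in 3 draws of 17831 genes with 200 changed in each. It called 12.4% of the genes given a 2-fold change, 83.1% at 4-fold and 96.5% at 8-fold, and 16 of its 399 calls were false. The draws gave each gene the spread of the trend at its level, alike in all groups. They did not hold the wider difference between the Arid1a KO vehicle livers, so these rates need not apply to the data. The common biological coefficient of variation was 29.3%.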

Additional observations from a re-analysis of the deposited data

Results flagged for a closer look

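Slc1a2, the pericentral glutamate transporter gene, had a change with the agonist in Arid1a KO liver that differed from the change in WT liver by -5.45 on the log2 scale (edgeR quasi-likelihood test of the interaction, adjusted p = 0.0129). Both Arid1a KO agonist livers were below 1 CPM and all 4 WT livers were above 140 CPM. The difference was not called without agonist replicate 1 of Arid1a KO or without agonist replicate 2 of WT, fits in which no gene was called.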

How the results depend on the processing

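The 98 genes higher and 57 lower in Arid1a KO became 785 and 568 without the low-count filter, 376 and 306 with DESeq2, and 6 and 3 in a fit of only the 4 libraries compared, and with each library left out in turn they ran from 16 to 169 higher and from 9 to 121 lower. With the 9-day vehicle livers 37 were lower. Without replicate 1 of both 30-day vehicle groups, an alternative chosen after seeing the data, 10 were higher and 6 lower. RLE scaling gave 95 and 54, limma-trend 133 and 75, and all 16 libraries 73 and 41. The 5 calls in WT became 393 without the filter, 112 with DESeq2, 32 with limma-trend, 1 with all 16 libraries, 60 with the 9-day vehicle livers, 12 without replicate 1 of both vehicle groups, and 0 to 5 with each library left out. The 1 interaction call became 493, 132 and 6 with no filter, DESeq2 and limma-trend, 3 with the 9-day vehicle livers, 0 without replicate 1 of both vehicle groups, and 0 to 23 with each library left out. The causes of these differences were not tested.

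With the replicate number as a block, the 14-library fit called 124 higher and 83 lower in Arid1a KO, 5 in WT and 9 in the interaction, and the fit of the 8 libraries of 30 days called 128, 102, 17 and 4. The deviations of same-numbered livers correlated at 0.17 between Arid1a KO agonist and vehicle, 0.366 between WT agonist and vehicle, 0.239 between the vehicle groups and 0.35 between the agonist groups. All 4 are positive, but with 2 pairs in each comparison and no label of a shared batch the pairing is not established.

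Against the 9-day vehicle livers the sign turned for Cyp2c39 (-0.67), Gadd45g (0.28), Bmp4 (0.26), C1qa (-0.074), C1qc (-0.15), Alas2 (0.48), Cela2a (0.41), Arid1b (0.022), Nr1i2 (-0.35) and Grm8 (1.35), of which Alas2 alone was called in the comparison of the 30-day livers. With a library left out it turned for Arid1b (from -0.60 to 0.17) and Abca1 (from -0.49 to 0.018), in both without vehicle replicate 1, and without replicate 1 of both vehicle groups for the same genes (0.16 and 0.014). Of the other values of named genes under alternatives, 1580 kept their direction and side of the threshold, 250 fell short of it and 144 passed it. In the simulated data, changes of about 2-fold were mostly below what 2 libraries a group could call.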
